A study of Mus musculus with 10 samples.

Results

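Small RNA reads of 30 to 40 nt were taken from 10 libraries of cells sorted from Day 6 mouse embryoid bodies, by read length alone. They were 96649 of 1575916 distinct sequences and 3330260 of 103197012 reads, and they fell into 45557 families sharing the first 18 nt. The libraries form 5 groups of 2 replicates. Mouse primordial germ cell-like cells (mPGCLCs) came from the male mESC lines E14 (129/Ola, no reporter) and BG5 (C57BL/6J/DBA/129, carrying Blimp1-GFP). Non-PGCLC cells, the surrounding cells of the embryoid bodies, came from E14, from BG5 and from SGET (B6CBA/129, carrying Stella-GFP and Esg1-tdTomato). The study's methods give the gates per line, SSEA1 with CD61 for E14 and SSEA1 with Blimp1-GFP for BG5, whereas the labels give a Stella-GFP and Esg1-tdTomato gate for every sample. SGET has no mPGCLC library here. Each line is 1 line, and nothing states that replicates came from separate cultures, so p-values measure the spread between these libraries, which may be technical.

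Transfer RNAs fold into a cloverleaf with a D arm, an anticodon arm and a T arm, and their 3′ end carries a CCA tail that is added after transcription and is not in the genome. Cleavage in the anticodon loop leaves a 5′ piece and a 3′ piece, and such pieces are a common part of small RNA libraries above the length of miRNAs. Y RNAs, 5S rRNA, snRNAs and snoRNAs are other short structured RNAs whose fragments fall in this length range. piRNAs, the small RNAs of the germline, are shorter than most of these reads.

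Library totals ran from 7421061 to 14444567 reads, of which 1.19% to 5.91% were 30 to 40 nt long. By counting error alone, a family with no read could be present at up to 0.363 RPM in E14 mPGCLC replicate 1, the level of 3 reads. RPM is reads per 1000000 reads of the library. The true limit is higher, since 55.1% of E14 mPGCLC families with 20 or more reads in 1 replicate had none in the other. Between 43.4% and 67.3% of distinct sequences of 30 to 40 nt in a library had a single read. Hairpins of miR-290 to miR-295, markers of pluripotent and germ cell-like cells, held 22.4% and 19.6% of reads in E14 mPGCLCs and 13.5% and 9.33% in E14 non-PGCLCs. They held 7.12% and 4.85% in BG5 mPGCLCs, 0.780% and 0.906% in BG5 non-PGCLCs, and 14.6% and 16.1% in SGET non-PGCLCs. Within each line the mPGCLC libraries were the higher ones, but E14 and SGET non-PGCLC libraries lay above BG5 mPGCLC libraries. Hairpins of miR-199 and miR-214, markers of mesenchymal cells, held 2.20% and 1.32% in BG5 non-PGCLCs and at most 0.124% elsewhere. The part of these cell differences in the results on 30 to 40 nt reads was not tested.

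The leading families began with the 5′ end of a tRNA. A read was taken as a candidate 5′ tRNA fragment if box A, the promoter element inside tRNA genes, started at base 7 to 9 and at least 3 of 4 D-stem pairs could form. The 8 highest such families held 89.0% of all candidate reads by RPM. The leading read is shown for 6 of them, because most of the results below turn on these families, with capitals marking box A.
Gly-GCC: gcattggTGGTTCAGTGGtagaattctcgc
Gly-TCC: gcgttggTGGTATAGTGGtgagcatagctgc
Lys-CTT: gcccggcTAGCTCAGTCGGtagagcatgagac
Asp-GTC: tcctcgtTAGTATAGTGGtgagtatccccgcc
Val: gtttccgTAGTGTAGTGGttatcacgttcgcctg
Glu-TTC: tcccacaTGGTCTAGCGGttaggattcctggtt
The 6 reads carry box A from base 8 and stop in or just before the anticodon.

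The anticodon was read from longer reads of the same family, of 38 to 43 nt, shown here because they name the tRNA, with capitals marking the anticodon.
Gly-GCC, 43 nt: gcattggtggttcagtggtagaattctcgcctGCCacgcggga
Gly-TCC, 43 nt: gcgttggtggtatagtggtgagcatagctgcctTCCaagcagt
Lys-CTT, 43 nt: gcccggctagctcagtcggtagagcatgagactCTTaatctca
Asp-GTC, 43 nt: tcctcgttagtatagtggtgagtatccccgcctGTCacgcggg
Glu-TTC, 43 nt: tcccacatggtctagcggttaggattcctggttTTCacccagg
The name rests on 313 of 316 reads with an anticodon for Glu-CTC, 1530 of 1548 for Gly-GCC and 2860 of 2871 for Gly-TCC, but on 21 reads for Lys-CTT and 26 for Glu-TTC. An anticodon was read in 101 of 1146 families, which held 96.8% of candidate RPM and 24 different anticodons. The reads were not matched to cytoplasmic tRNA genes, so the names are assignments from sequence. All 10 cytoplasmic tRNA genes whose sequence could be read, of 408 in the RefSeq table, met the rule. Of 3727 distinct sequences matched to snoRNAs, snRNAs, misc_RNA, rRNA or miRNAs, 2 met it (0.0537%), and of 7612 matched to long RNAs 19 did (0.250%). Among 114 matched to mitochondrial tRNAs, 3 met it (2.63%).

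Candidate 5′ tRNA fragments were the largest recognised class of the 30 to 40 nt reads. They comprised 6970 distinct sequences and took 44.2% and 49.8% of 30 to 40 nt reads in E14 mPGCLCs, 31.1% and 30.04% in BG5 mPGCLCs, 32.8% and 26.9% in E14 non-PGCLCs, 31.6% and 32.2% in BG5 non-PGCLCs, and 36.1% and 36.8% in SGET non-PGCLCs. The E14 mPGCLC libraries were the 2 highest. By amino acid, Glu families averaged 6144 RPM over the 10 libraries, Gly 3031 RPM, Lys 808 RPM, Val 695 RPM and Asp 646 RPM. Ser averaged 73.0 RPM, Cys 40.3 RPM and Leu 25.2 RPM. Glu held 43.8% to 59.6% of candidate RPM in every library and Gly 21.3% to 30.96%, so the ranges of these 2 amino acids did not overlap.

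Read length peaked where these candidates did. Of all reads, those of 34 nt exceeded both 33 and 35 nt in 10 of 10 libraries, and those of 32 nt exceeded both neighbours in 7. Without the candidates, a peak remained at 34 nt in 1 library and at 32 nt in 1. Among the candidates both peaks were present in 10 of 10. The candidate rule itself set no end base, but the length window limited the ends. With box A near the start of the read, read length fixes the end base. Candidates of 29 nt, outside the window, were 0.0156% to 0.106% of all reads per library, against 0.0451% to 0.319% at 30 nt. The range of ends was therefore partly set by the selection, whereas the peaks at 32 and 34 nt lie inside the window. Reads of 30 to 34 nt were 92.1% to 98.1% of candidates and 70.5% to 81.7% of the other reads.

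The first base followed the same split. Candidates began with T in 49.0% to 63.5% and with G in 33.96% to 48.0% of reads per library, and of the reads shown above those of Asp and Glu begin with T and those of Gly with G. Only 0.275% to 0.697% began with A. The other reads began with G in 26.5% to 35.7%, T in 22.2% to 27.6%, A in 21.4% to 24.9% and C in 18.2% to 21.7%. At 38 nt, where few candidates were found, C was the first base of 32.6% to 48.5% of reads.

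The Glu-CTC family was the highest of all. Its levels were 7723 and 6256 RPM in E14 mPGCLCs, 1853 and 3037 RPM in BG5 mPGCLCs, 7360 and 4854 RPM in E14 non-PGCLCs, 5370 and 3772 RPM in BG5 non-PGCLCs, and 3856 and 11280 RPM in SGET non-PGCLCs. The cell types overlapped in E14, both BG5 mPGCLC libraries lay below both BG5 non-PGCLC libraries, and the SGET replicates spanned most of the whole range. Gly-GCC averaged 1735 RPM, from 644 to 3038 RPM, again lowest in BG5 mPGCLCs and highest in SGET non-PGCLC replicate 2.

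Gly-TCC lay in opposite order in the 2 lines. It stood at 1519 and 1977 RPM in E14 mPGCLCs against 715 and 855 RPM in E14 non-PGCLCs, and at 140 and 210 RPM in BG5 mPGCLCs against 531 and 331 RPM in BG5 non-PGCLCs. SGET non-PGCLCs held 991 and 1284 RPM. In both lines the 2 cell types held separate ranges. Lys-CTT averaged 722 RPM (229 to 1463), Asp-GTC 627 RPM (110 to 1308), the Val family 518 RPM (101 to 1062) and Glu-TTC 289 RPM (101 to 539), each with its lowest library in BG5 mPGCLCs.

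Within the length window, reads ended within a few bases of the anticodon, at bases that differed between families (shares over all libraries). The window starts at 30 nt, so ends before base 30 were not counted. Nearness to the anticodon is therefore partly set by the window. In Glu-CTC, whose anticodon starts at base 34, 32.1% of reads ended at base 32 and 29.9% at base 34, the first anticodon base, with 5.95% between them at base 33. In Gly-TCC, with the same anticodon position, 61.4% ended at base 31 and 0.564% at base 34. Asp-GTC ended at base 32 in 64.3% of reads and Lys-CTT in 44.7%. Gly-GCC, whose anticodon starts at base 33, ended at base 30 in 36.9% (16.4% to 55.6% per library), at base 31 in 24.04%, at base 32 in 15.1% and at base 33 in 20.7% (11.6% to 38.8%). The Val family ended at base 34 in 38.3%, and Glu-TTC at base 33 in 35.1%, base 32 in 31.2% and base 31 in 26.003%, with base 33 at 9.61% to 71.8% per library. Thus families with an anticodon at the same base ended at different bases.

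The balance of the Glu-CTC ends varied between libraries. Reads of 34 nt per read of 32 nt were 0.643 and 0.666 in E14 mPGCLCs, 0.976 and 1.78 in BG5 mPGCLCs, 0.774 and 0.609 in E14 non-PGCLCs, 0.831 and 0.965 in BG5 non-PGCLCs, and 1.18 and 1.45 in SGET non-PGCLCs. The E14 libraries were the 4 lowest. BG5 mPGCLC libraries lay above BG5 non-PGCLC libraries, and E14 cell types overlapped.

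The Val family joined reads with more than 1 anticodon, GAC in 250 reads, CAC in 161 and AAC in 7. RefSeq lists no mouse tRNA gene with the anticodon GAC. The stretches between the shared first 18 bases and the anticodon were also mixed, and the 2 most frequent are shown with capitals marking that stretch.
Val stretch 1: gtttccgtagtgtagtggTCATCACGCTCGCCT
Val stretch 2: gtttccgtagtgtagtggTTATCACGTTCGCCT
The first was followed by GAC in 130 reads and CAC in 64, and the second by CAC in 78 and GAC in 76. Reads of this family therefore could not be assigned to a single tRNA.

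Pieces of the 3′ side were recognised by the T arm, with at least 4 of 5 stem pairs, and took 2.84% to 8.33% of 30 to 40 nt reads. Between 41.3% and 64.6% of them ended in CCA, against 0.0382% to 0.282% of the 5′ candidates. The leading CCA pieces of Asp-GTC and Glu-TTC are shown with that tail in capitals. They were tied to 5′ families by 7 pairs of the acceptor stem, a step chosen after the values were seen.
Asp-GTC, 3′: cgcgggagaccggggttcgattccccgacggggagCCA
Glu-TTC, 3′: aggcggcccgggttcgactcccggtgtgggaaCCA
These are 38 and 35 nt long, and 20.9% to 31.2% of CCA pieces per library were of 38 nt.

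The 5′ and 3′ pieces of a tRNA were not found in equal amounts. Asp-GTC 3′ pieces ending in CCA averaged 727 RPM and the 5′ family 627 RPM, but the order varied, with more 5′ than 3′ reads in 5 libraries and fewer in 5. The 5′ reads per 3′ read were 1.48 and 1.74 in E14 mPGCLCs, 1.496 and 1.03 in BG5 mPGCLCs, 0.411 and 0.742 in E14 non-PGCLCs, 0.707 and 0.436 in BG5 non-PGCLCs, and 1.71 and 0.692 in SGET non-PGCLCs. The 4 mPGCLC libraries lay above the E14 and BG5 non-PGCLC libraries, and this ratio was not tested. Counting also the T-arm pieces without the tail that lie inside these CCA pieces, a step chosen after seeing the data, raised the 3′ mean to 1197 RPM and left 1 library with more 5′ than 3′ reads. The ratio was then 0.590 to 1.11 in the 4 mPGCLC libraries and 0.286 to 0.470 in the E14 and BG5 non-PGCLC libraries. For Glu-TTC the 3′ pieces averaged 161 RPM, and the ratio ran from 0.654 to 3.91, over 1 in 9 libraries, or in 6 with pieces without the tail. Glu-CTC 3′ pieces averaged 48.3 RPM against 5536 RPM of the 5′ family, with 49.8 to 329 5′ reads for each in a library. Lys-CTT 3′ pieces averaged 7.95 RPM, and for Gly-TCC none was found. Those of the Val family were found in E14 non-PGCLC replicate 1 alone (5.12 RPM), and those of Gly-GCC in BG5 non-PGCLC replicate 2 (1.18 RPM) and E14 mPGCLC replicate 1 (0.483 RPM) alone. No read was of 41 or 42 nt and 43-nt reads have no adapter, so 3′ pieces longer than 40 nt were not counted. The ratios apply to this length range only. The counted reads had also been mapped end to end to the genome with at most 2 mismatches. Since the CCA tail is not in the genome, tailed 3′ pieces may have been lost, to a degree that can differ between tRNA genes. The part of this in the ratios and in the absent 3′ pieces was not tested. The Asp-GTC 3′ pieces were at 723 and 517 RPM in E14 mPGCLCs, 73.6 and 340 RPM in BG5 mPGCLCs, 1421 and 818 RPM in E14 non-PGCLCs, 476 and 568 RPM in BG5 non-PGCLCs, and 445 and 1891 RPM in SGET non-PGCLCs. In both lines the non-PGCLC libraries lay above the mPGCLC libraries. The family of the first 18 bases of that piece showed a log2 difference (mPGCLC over non-PGCLC, mean of both lines) of -0.79 (SE 0.497, adjusted p = 0.677, edgeR quasi-likelihood test).

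Exact matches to GENCODE vM21 transcripts covered the minority of reads. No match was found for 72.8% to 80.6% of 30 to 40 nt reads per library, a share that includes the tRNA pieces. Reads with no match that were neither tRNA piece were 27.5% to 42.7%. Long RNAs held 6.34% to 13.4%, snoRNAs 4.05% to 8.05%, misc_RNA (Y RNAs, 7SL and 7SK) 1.99% to 4.69%, rRNA 0.594% to 3.55% and snRNAs 0.506% to 0.875%. Mitochondrial tRNAs held 0.0521% to 0.251%. Coordinates below are on GRCm38, counted from 1.

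Fragments of 4 annotated RNAs are shown, the highest families of misc_RNA, snoRNA, snRNA and long RNA by mean RPM, with capitals marking the 18 bases that define the family.
Rny1: GGCTGGTCCGAAGGTAGTgagttatctcaa
Snord100: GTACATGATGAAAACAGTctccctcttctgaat
Rnu1a1: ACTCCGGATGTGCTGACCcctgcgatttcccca
Rmrp: AGCTCGCTCTGAAGGCCTgtttcctaggct
Rny1 (chromosome 6, 47788069 to 47788180, minus strand) is a Y RNA bound by the Ro protein, and the fragment is its bases 1 to 30. Snord100 (chromosome 10, 23785750 to 23785823, minus strand) is a box C/D snoRNA, fragment bases 4 to 36. Rnu1a1 (chromosome 11, 87422867 to 87423030, plus strand) is U1 snRNA of the spliceosome, fragment bases 70 to 102. Its place as the highest snRNA family rests on 1 library, since it stood at 110 RPM in E14 non-PGCLC replicate 2, at 13.9 RPM or less elsewhere and at 0 in 4 libraries, and its mean of 13.5 RPM is 2.79 RPM without that library. Rmrp (chromosome 4, 43492783 to 43493063, minus strand) is the RNA of RNase MRP, fragment bases 5 to 34. Reads shared with near-identical copies of these genes were not resolved here.

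Most reads of Rny1 and of Rn5s, the 5S rRNA, came from the 5′ end when all libraries were joined. Of Rny1 reads, 82.7% started within the first 2 bases (63.9% to 91.1% per library), and of Rn5s reads 82.1% (41.3% to 95.1%). Rny1 averaged 913 RPM (321 to 1421) and Rn5s 366 RPM (27.9 to 1251). Rn5s was highest in the E14 libraries, at 441, 530, 658 and 1251 RPM, while the other 6 libraries held 27.9 to 185 RPM. Rny3, the other Y RNA, averaged 161 RPM and its fragments were spread, with 61.1% inside the RNA.

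Other structured RNAs were lower. Rmrp averaged 144 RPM, with 98.2% of reads inside the RNA, and U3, the snoRNA of rRNA processing, 107 RPM. Spliceosomal and related snRNAs were collected by gene name, so copies annotated under other names were not counted. U1 averaged 90.5 RPM, U2 52.1, U12 22.5, U7 14.8, U5 10.6, U6 1.11 and U11 0.234 RPM. No read was assigned to a gene named for U4, which does not show that U4 was absent. 7SL, the RNA of the signal recognition particle, averaged 30.5 RPM, Rn7sk 14.2 RPM, Rpph1 6.08 RPM and Vaultrc5 1.21 RPM. Terc, the telomerase RNA, had no read.

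Of the snoRNAs, 239 had reads, and the leading 5 held 24.3% of snoRNA RPM. Gm23212 averaged 163 RPM, Snord49a 119 RPM, Snord100 114 RPM and Snord50a 76.6 RPM. Snord50a fragments were from the 5′ end in 99.7% of reads, Snord49a fragments from the 3′ end in 87.8%, and none of the 11202 Snord100 reads began within the first 2 bases. The leading Snord100 fragment starts at base 4 and the leading Rmrp fragment at base 5, so the limit of 2 bases counts these near-5′ pieces as inside. Over all snoRNAs 31.9% of reads began at the 5′ end, 16.5% ended at the 3′ end and 51.6% lay inside.

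The 18 mitochondrial tRNAs with reads averaged 38.2 RPM together, led by mt-Tp at 10.8, mt-Tq at 7.23, mt-Te at 5.91 and mt-Tm at 5.37 RPM. Of their reads 34.4% started at base 1, 6.88% ended at the last base and 58.7% lay inside. mt-Tq (tRNA-Gln) is shown as the highest family, with capitals marking its first 18 bases.
mt-Tq: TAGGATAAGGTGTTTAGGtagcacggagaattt
It lies on the mitochondrial chromosome (M) at 3772 to 3842, minus strand. The mt-Tq family stood at 29.9 RPM in SGET non-PGCLC replicate 2, at 13.1 RPM or less elsewhere and at 0 in 1 library. Its mean of 7.74 RPM is 5.28 RPM without SGET non-PGCLC replicate 2.

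Long RNA reads were concentrated in a few annotations. Gm42418 (chromosome 17, 39846958 to 39848788) averaged 1057 RPM, Lars2 286 RPM, Gm26917 111 RPM and Gm15564 98.0 RPM, which are annotations that overlap or resemble ribosomal RNA sequence. With these 4, long RNA reads fell on 2754 genes. Reads with no match to annotation or tRNA rule averaged 11892 RPM over 39229 families, and their 10 leading families held 8.96%. Their highest family averaged 194 RPM.

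A stricter set was formed by sequences with 20 or more reads in both replicates of a group. These were 686 sequences in E14 mPGCLCs, 310 in BG5 mPGCLCs, 649 in E14 non-PGCLCs, 397 in BG5 non-PGCLCs and 492 in SGET non-PGCLCs, of 1391 in any group. Of the sequences of all lengths that met the same limit they were 4.66%, 2.81%, 6.69%, 5.01% and 7.80%, so E14 mPGCLCs had the highest count and SGET non-PGCLCs the highest share. The sequences of 30 to 40 nt that passed held 43.2% to 66.6% of 30 to 40 nt reads per library. Of the 1391, 207 were candidate 5′ tRNA fragments, 94 T-arm pieces, 198 snoRNA fragments and 112 long RNA fragments, and 675 were neither tRNA piece and matched no annotation. Passing in all 5 groups were 104 sequences, of which 41 were 5′ candidates and 18 T-arm pieces. Depth differs between libraries, so the counts per group are a description.

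Replicates shared few sequences. Between 7.41% and 11.9% of distinct sequences found in either replicate of a group were found in both. Of sequences with 20 or more reads in 1 replicate, 67.9% to 84.8% were absent from the other. For families of the first 18 bases this was 55.1% to 76.4%.

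Shares of all reads were compared between 4 mPGCLC and 4 non-PGCLC libraries of E14 and BG5 (two-sided exact permutation test, 70 arrangements, smallest possible p 0.0286, adjusted over 11 shares). Reads of 30 to 40 nt were 2.63% ± 1.26 (SD, n = 4) in mPGCLCs and 3.56% ± 1.09 (SD, n = 4) in non-PGCLCs, exact permutation p = 0.257. Candidate 5′ tRNA fragments were 1.10% ± 0.717 and 1.10% ± 0.354 (SD, n = 4 each, exact permutation p = 1), with a mean difference of 0.00427 percentage points. Within lines they differed by 0.411 points higher in E14 mPGCLCs and by -0.402 in BG5 mPGCLCs, with separate ranges of the cell types in each. As a share of reads of 20 to 40 nt the ranges overlapped in both lines (mPGCLCs first). They were 3.28% and 3.33% against 3.46% and 2.62% in E14, and 0.967% and 1.86% against 2.12% and 1.75% in BG5. As a share of 30 to 40 nt reads they stayed separate, in opposite directions. There they were 44.2% and 49.8% against 32.8% and 26.9% in E14, and 31.1% and 30.04% against 31.6% and 32.2% in BG5. The mean difference over both lines was then 7.93 points (exact permutation p = 0.286).

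Long RNA fragments were the single share whose cell types did not overlap over the 8 libraries. They were 0.213% ± 0.0382 in mPGCLCs and 0.347% ± 0.0575 in non-PGCLCs (SD, n = 4 each, exact permutation p = 0.0286, adjusted p = 0.314). snRNA fragments were 0.0163% and 0.0279% (n = 4 each, exact permutation p = 0.0571). As a share of 30 to 40 nt reads rather than of all reads, the long RNA difference was -0.848 points (exact permutation p = 0.686). The shares of rRNA, snoRNA, misc_RNA, mitochondrial tRNA and no match had exact permutation p of 0.257 to 0.571. With arrangements kept within each line, rRNA, snRNA, long RNA and the 5′ G percentage had exact permutation p = 0.0556, the smallest that design allows, with separate ranges of the cell types of 1 direction in both lines. Over the 70 arrangements none of the 11 shares passed after adjustment.

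Families were tested across all lengths with the edgeR quasi-likelihood test and Benjamini-Hochberg adjustment, over 25644 families of which 3487 were of 30 to 40 nt. Over all families 0.105% were called between cell types, and of the 30 to 40 nt families 0 were called, with 226 at an unadjusted p under 0.05 and a lowest adjusted p of 0.501. DESeq2 called 20 of the 3487, where it called 4.71% of all families. Of these 20, 17 were at 0 in 4 or more libraries, 13 had over 50% of their RPM in 1 library, and none averaged above 16.1 RPM. The highest of them was a further Gly-TCC family, whose leading read of 30 nt also matched a long RNA. It stood at 36.6 and 61.8 RPM in E14 mPGCLCs and 10.7 and 9.78 RPM in BG5 mPGCLCs, against 0 and 0 in E14 and 7.19 and 0.0692 RPM in BG5 non-PGCLCs. SGET non-PGCLCs held 11.1 and 24.2 RPM. In both lines its mPGCLC libraries were the higher ones, unlike the larger Gly-TCC family described above, and with edgeR its adjusted p was 0.501. Within E14, 0 were called (background 0.0078%, 32 at an unadjusted p under 0.05), and within BG5, 0 (background 0.117%, 29 at an unadjusted p under 0.05). The change between cell types differed between the lines in 0 families (background 0.0234%, 156 at an unadjusted p under 0.05), and the 3 non-PGCLC groups in 0 (background 0.191%, 76 at an unadjusted p under 0.05). DESeq2 was not run on the contrasts within lines, on the difference of the change between lines and among non-PGCLC groups.

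The fit had little power for these reads. In counts simulated at the spread of these libraries, a 16-fold change was called in 4 of 50 families and in 0 of 50 sequences among the 300 most abundant, and a 4-fold change in 0 of 50 and 0 of 50. At a dispersion of 0.1 the same fit called 100 of 100 families changed 16-fold. The count of 0 therefore does not show that families did not differ.

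Gly-TCC had the lowest unadjusted p for the difference between lines among the 10 highest families. Its log2 change was 1.36 (SE 0.385) in E14 and -1.15 (SE 0.383) in BG5, and the difference of -2.51 (SE 0.543) had an adjusted p of 0.707 (edgeR quasi-likelihood test). Glu-CTC was at -0.15 (SE 0.245) in the mean of both lines, Gly-GCC at -0.10 (SE 0.240) and Asp-GTC at 0.39 (SE 0.384). With only 30 to 40 nt families in the table, which moved the median family by 0.38, Glu-CTC turned to 0.42 (adjusted p = 0.0122, edgeR) and Gly-GCC to 0.54 (adjusted p = 0.537, edgeR), so neither has a direction that holds under both scalings. The Rny1 fragment was at -0.04 (SE 0.352), the Rn5s fragment at -0.66 (SE 0.655) and the Rmrp fragment at -0.79 (SE 0.590), and in the fit over all lengths the adjusted p of these 6 families was 0.763 or higher.

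Of single sequences, 4606 of 30 to 40 nt were tested among 65913 of all lengths. Over all lengths 0.137% were called by edgeR, of these 4606 it called 0, with 422 at an unadjusted p under 0.05, and DESeq2 called 20 where it called 3.89% of sequences of all lengths. Classes of length and first base, tested on the 8 libraries of E14 and BG5 with the line as covariate, gave 1 call among 44 of 30 to 40 nt, where 6.48% of all 108 classes were called and 2.78% were called as lower in mPGCLCs. Of the 44 classes, 43 had a log2 change below 0, 30 had an unadjusted p under 0.05, and the median was -0.82 on the scale of total reads. The number with an unadjusted p under 0.05 was 13 under TMM scaling and 9 with all 10 libraries. The classes are parts of the 30 to 40 nt share (exact permutation p = 0.257), so they are not independent. These counts were not set against all 108 classes. The called class, reads of 32 nt with a 5′ A, was lower in mPGCLCs, with a log2 change of -0.98 (SE 0.264, adjusted p = 0.0387). That call was lost under TMM scaling, with DESeq2, with the replicate number as a block and with all 10 libraries. Single libraries also decided it. It was lost without E14 mPGCLC replicate 1 or 2, BG5 mPGCLC replicate 1, E14 non-PGCLC replicate 1 or BG5 non-PGCLC replicate 1. Without BG5 mPGCLC replicate 2 there were 24 calls among the 44. The share called over all classes was not taken in that fit, so the 24 cannot be read as particular to these lengths.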

How the data were processed

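Small RNA of 10 libraries was sequenced by the study from a NextFlex kit with 4 random bases at each read end. The authors deposited raw counts of distinct read sequences per library, after adapter trimming with cutadapt 3.2 and mapping to GRCm38 with STAR 2.5.3a, per the submitters' processing notes. Since these bases did not serve to count molecules, PCR copies remain and intervals cover counting error only.

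Reads of 30 to 40 nt were selected and matched exactly, sense strand, to GENCODE vM21 transcripts. RPM used all reads of a library. Shares were compared with exact permutation tests (scipy 1.17.1). Families (first 18 bases, within a length band) and sequences were fitted with edgeR 4.0.16 in R 4.3.3 over 10 libraries and 5 group means, after filterByExpr and TMM scaling. Classes were fitted on 8 libraries with line as covariate, scaled by total reads. Benjamini-Hochberg adjustment ran over all lengths at 0.05. DESeq2 1.42.0, other scalings, filters and denominators, each replicate left out and the replicate block were alternatives.

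Named families were the 10 highest by mean RPM, the highest of each annotated class and the 5 highest candidate 5′ tRNA families. The part of the rule for called families gave none. The sequences of some named families are not reported here. The members and lists were chosen with earlier results of these data known. Correlations of deviations between same-numbered libraries were 0.00426 in E14 and -0.0175 in BG5. They cannot decide whether replicate numbers paired the libraries, since many families well counted in a replicate were absent from the other.

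The fits were tested on simulated data. With a dispersion of 0.1, median log2 changes were recovered within 0.2 of those put in, and this was the requirement set on the code. It replaced an earlier requirement of 0.7 on features simulated at the libraries' own dispersion, which held for 1 random draw and failed for the next. At that dispersion a log2 change of 4 was recovered with a median of 3.50 in families and 3.13 in sequences among the 300 most abundant.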

Additional observations from a re-analysis of the deposited data

Results flagged for a closer look

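Results are listed here because all mPGCLC libraries of one line lay above, and all of the other line below, the non-PGCLC libraries of the same line. The share of candidate 5′ tRNA fragments differed by 0.411 percentage points (mPGCLC minus non-PGCLC) in E14 and by -0.402 in BG5, and the difference between the lines was not tested for this share. With reads of 20 to 40 nt as the denominator the cell types overlapped in both lines. With reads of 30 to 40 nt as the denominator they stayed separate, higher in E14 mPGCLCs and lower in BG5 mPGCLCs. The Gly-TCC family had log2 changes of 1.36 in E14 and -1.15 in BG5, the Val family 1.02 and -0.81, and the Glu-TTC family 0.91 and -0.63. The interaction test of edgeR gave adjusted p of 0.707, 0.707 and 0.739 for these 3 families. With 2 libraries per group no single library could be tested as standing apart from its group.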

How the results depend on the processing

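Depth and replicate agreement limit these reads, since most families had a single sequence and few sequences were shared by replicates. Scaling by total reads shifted the median log2 change of the 30 to 40 nt families by -0.15, DESeq2 size factors by -0.20, and a table of only 30 to 40 nt families by 0.38. The following values are mPGCLC minus non-PGCLC differences in percentage points that changed direction. The share of distinct sequences was 0.643 for sequences with 2 or more reads, and the 5′ G percentage was -0.278 with each distinct sequence counted 1 time. Candidate 5′ tRNA fragments were at -0.128 of reads of 20 to 40 nt and at -0.0590 with box A at base 8 only together with 4 of 4 D-stem pairs. Of 30 to 40 nt reads, mitochondrial tRNA was at 0.000949, snoRNA at 1.09 and no match at 0.367. snRNA passed the unadjusted threshold of reads of 20 to 40 nt, at -0.0263. For long RNA (-0.135), arrangements kept within lines and the replicate block as sign flips over same-numbered pairs gave exact permutation p of 0.0556 and 0.125, which are the smallest these 2 designs allow and say nothing of stability. Long RNA did not pass as a share of reads of 20 to 40 nt (-0.293) or of 30 to 40 nt reads (-0.848). Without Gm42418, Lars2, Gm26917 and Gm15564, a setting chosen after seeing the data, it was -0.0712 (exact permutation p = 0.0286). The cause of these changes was not tested.

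Family calls were 20 with DESeq2, 1 with 20 or more reads in both replicates and 1 with only 30 to 40 nt families in the table, and sequence calls 20 with DESeq2 and 2 with 20 or more reads. The replicate block left family calls at 0. Class calls were 0 under TMM, DESeq2, the replicate block and all 10 libraries. With only 30 to 40 nt families in the table, log2 changes were 0.42 for Glu-CTC (adjusted p = 0.0122, edgeR), 0.54 for Gly-GCC, 0.48 for Rny1, 0.19 for Lys-CTT and 0.60 for Snord100. Under total reads, DESeq2 size factors and DESeq2, Gly-TCC was at -0.073, -0.13 and -0.13, Val at -0.10, -0.15 and -0.15, Glu-TTC at -0.049, -0.10 and -0.10, and Rnu1a1 at -0.026, -0.10 and -0.49. With at least 10 reads, Rny1 was at 0.044 and Snord100 at 0.049, and with the replicate block Snord100 was at 0.21.

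With each library left out in turn, the share differences ran as follows, from lowest to highest: reads of 30 to 40 nt -1.4 to -0.452, distinct sequences -0.96 to 0.415, 5′ G 1.49 to 4.33, candidate 5′ tRNA fragments -0.211 to 0.247, Mt_tRNA -0.00321 to -0.000764, snRNA -0.0147 to -0.00959, snoRNA -0.0865 to -0.00616, rRNA -0.05 to -0.0114, misc_RNA -0.0529 to -0.0163, long RNA -0.16 to -0.113 and no match -1.04 to -0.27. Long RNA lost the unadjusted threshold when any 1 of the 4 mPGCLC libraries was left out (exact permutation p = 0.0571), and mitochondrial tRNA gained it without BG5 non-PGCLC replicate 2 (-0.00321, exact permutation p = 0.0286). Leaving out a library also loosened the low-count filter, so that these fits tested 10276 to 10909 families and 16598 to 18092 sequences of 30 to 40 nt, and their counts are not of the same form as those above. Between cell types edgeR called 0 families and 0 sequences in each case, with 1 to 11 families and 2 to 8 sequences at an unadjusted p under 0.05. The other counts were 0 to 1 families called within E14, 0 to 1 families called within BG5, 0 to 3 families whose change differed between lines, 1 to 4 families differing among non-PGCLC groups and 0 to 24 length and 5′ base classes called, where the 24 classes came without BG5 mPGCLC replicate 2. The log2 changes were Glu-CTC -0.31 to 0.16, Gly-GCC -0.15 to 0.24, Gly-TCC -0.00474 to 0.40, Rny1 -0.41 to 0.37, Lys-CTT -0.63 to 0.11, Asp-GTC -0.11 to 0.84, the Val family -0.30 to 0.53, T-arm 3′ family -1.36 to -0.33, Rn5s -1.86 to -0.12, Glu-TTC 0.04 to 0.43, mt-Tq -0.31 to 4.25, Rnu1a1 -1.20 to 1.95, Snord100 -0.30 to 0.94 and Rmrp -0.94 to -0.42. A lone sample was assumed to vary like the other groups. No share called over all lengths was taken for the counts in fits with a library left out.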
